A study of Mus musculus with 9 samples.

Results

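Chemokines are small secreted proteins that draw leukocytes along a gradient, and the genes described here are 9 chemokine ligand genes and 1 chemokine receptor gene measured in mouse alveolar macrophages, which live in the air spaces of the lung. The members were given by name: Ccl17, Ccl22, Ccl3, Ccl4, Ccl6, Ccl9, Cxcl1, Cxcl2, Cxcl16 and the receptor gene Cxcr4. All 10 were found among the 12003 genes of the expression table. Because Cxcr4 encodes a receptor, the set holds 9 ligands.

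Vhl knockouts (KO) carried loxP-flanked Vhl on both alleles together with Cre recombinase expressed from the CD11c promoter. Cre controls carried the same Cre with intact Vhl, and floxed controls carried the loxP-flanked alleles without Cre. All mice were on a C57BL/6 background, 8 to 12 weeks old, matched for sex and untreated. Macrophages were washed from the airways, pooled from 5 to 7 mice and enriched on beads against CD11c, a surface integrin that dendritic cells carry too, and 3 pools per genotype gave 9 poly(A) RNA libraries. The CD11c promoter is also active in dendritic cells, so Cre is not restricted to macrophages. The deposited values are normalized reads, which are reads scaled to library size and not to gene length.

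Vhl itself, the gene targeted for deletion, had 2.02, 2.14 and 2.52 normalized reads in the KO libraries. It had 24.0, 21.9 and 25.3 in the Cre controls and 21.0, 14.9 and 18.4 in the floxed controls. The labels of KO and control thus matched the data in all 9 libraries. Vhl does not check which controls carried Cre. All 17 alveolar macrophage markers on the list were measured, and their sum was 41548 to 53956 normalized reads in KO, 30757 to 35955 in Cre and 31583 to 35851 in floxed libraries. At a limma adjusted p under 0.05, 7 of these markers were higher and 4 lower in KO against both controls. Over all genes those shares were 19.7% and 20.2%. The sum weighs most on the most abundant markers, Chil3, Lpl and Abcg1. The libraries held 18201116 to 25861174 reads. The libraries numbered 1 stood apart in genes of neutrophils, with a summed level of 644 in KO pool 1 against 230 and 373 in KO pools 2 and 3. In Cre controls that sum was 569 in pool 1 against 196 and 283, and in floxed controls 1155 against 756 and 314. Results that rest on those libraries are given with and without them.

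Chemokines are grouped by the spacing of 2 cysteines near the mature N-terminus. CC ligands have them side by side, and CXC ligands have 1 residue between them. CCL17 and CCL22 act on CCR4 on T cells, CCL6 and CCL9 on CCR1, CXCL1 and CXCL2 on the neutrophil receptor CXCR2, and CXCL16 on CXCR6. VHL normally leads to the breakdown of the oxygen-regulated alpha chains of hypoxia-inducible factors (HIF). Of these genes, Cxcr4 is known in other cells as a target of HIF. Alveolar macrophages are known as an early source of ligands that bring neutrophils into the air spaces.

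The coding sequence around that cysteine pair is shown for 8 of the ligands because it places each in its class. The cysteine codons are in capitals, and the sequences are from GENCODE M21 transcripts (GRCm38), read 5′ to 3′. These CC ligands had no codon between the cysteines.
Ccl17: ggccgagagTGCTGCctggattac
Ccl22: gacagtatcTGCTGCcaggactac
Ccl4: cccacttccTGCTGTttctcttac
Ccl6: tcttcagacTGCTGCttctcttat
Ccl9: tcttcagatTGCTGCctgtcctat
The CXC ligands had 1 codon between them.
Cxcl1: gagctgcgcTGTcagTGCctgcagacc
Cxcl2: gaactgcgcTGTcaaTGCctgaagacc
Cxcl16: gctggaagtTGTtctTGTgatcgtacc
The coding sequence of Cxcl16 had 246 codons, against 92 to 122 codons in the other 8 ligands. CXCL16 is made as a membrane protein with its chemokine domain on a stalk, and it becomes soluble when proteases cut it.

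Of the 10 genes, Ccl17, Ccl22 and Cxcl16 were lower in KO libraries than in both kinds of control combined, and 0 were higher. Against the Cre controls alone the same 3 genes passed the test. Against the floxed controls alone Ccl17, Cxcl16 and Ccl3 passed, and Ccl22 did not. Genes passed when the Benjamini-Hochberg adjusted p of limma over all genes was under 0.05. Over all genes, 20.2% were lower and 19.7% higher in KO against both controls. The corresponding shares were 17.7% lower and 16.3% higher against Cre controls, and 16.8% lower and 17.5% higher against floxed controls. A count of 3 lower among 10 is therefore near the share found over the whole table. The same shares are the background for the counts of each gene list below. The median log2 fold change of the 10 genes was -0.50 against both controls, with -0.00 over all genes. That median was -0.13 against Cre controls and -0.81 against floxed controls, with -0.00 and -0.01 over all genes.

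The same 3 genes, Ccl17, Ccl22 and Cxcl16, had every KO library below every control library, which 18.5% of all genes had. No member had every KO library above every control library, which 19.3% of all genes had. Between Cre and floxed controls, 0 of the 10 genes passed limma's test, edgeR's or DESeq2's, where 0.167% of all genes (20) passed limma's. At an unadjusted p under 0.05 there were 2 genes with limma, Ccl4 and Cxcl1, 3 with edgeR and 2 with DESeq2. In bulk samples, fewer cells of a type and less RNA per cell cannot be told apart.

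**Figure D1:**
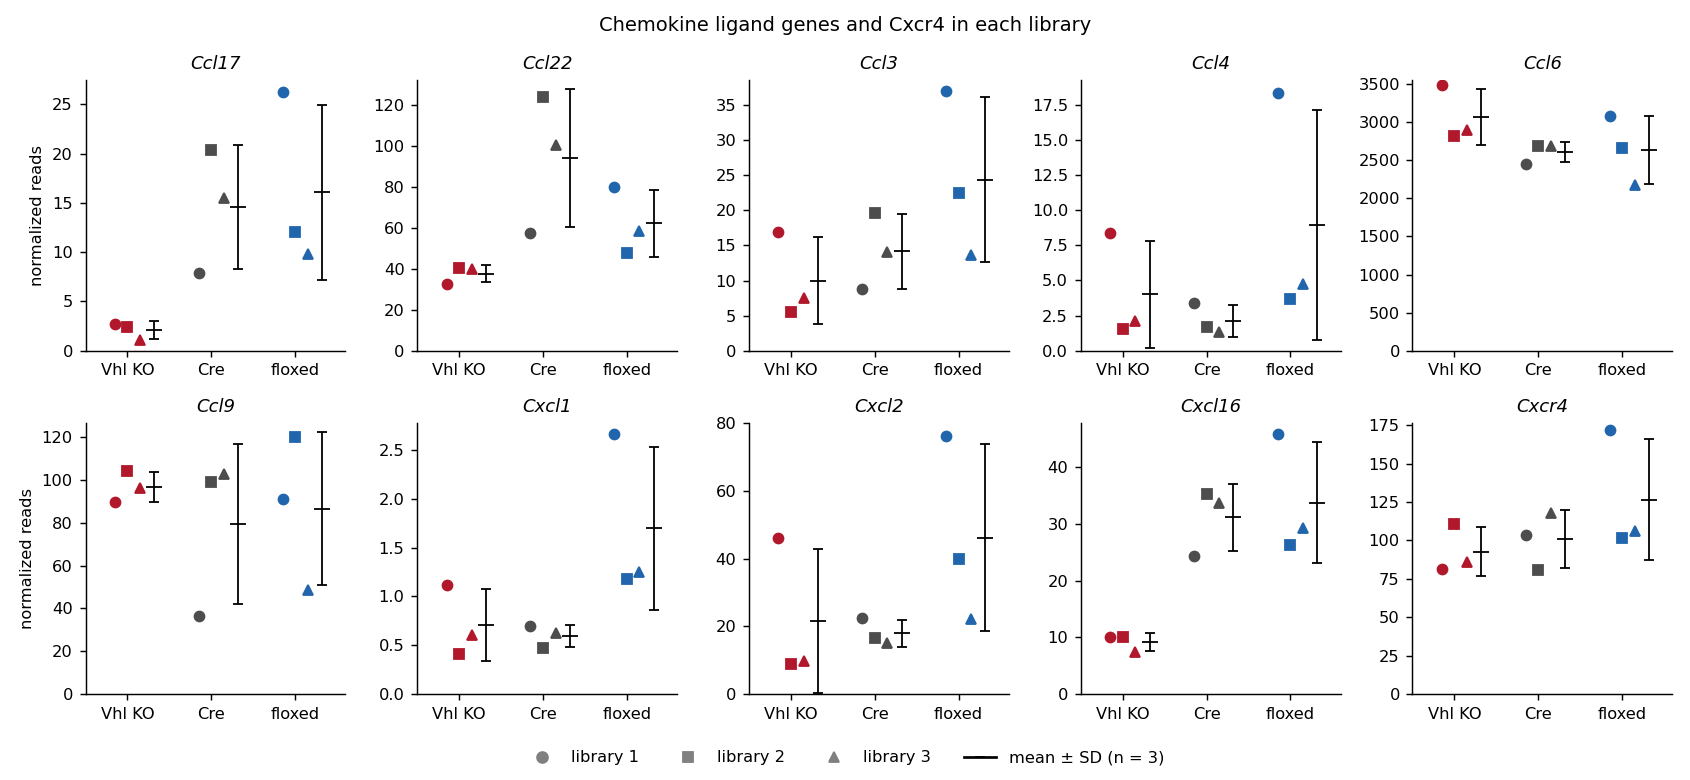
Normalized reads of each gene (y axes, starting at 0) in the 3 Vhl KO, 3 Cre control and 3 floxed control libraries, with marker shape for the pool number and black bars for mean ± SD (cut at 0 where the SD exceeds the mean). Ccl17, Ccl22 and Cxcl16 have every KO library below every control, while Cxcl1, Cxcl2 and Ccl4 are highest in pool 1 of each genotype.

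Ccl17, a ligand of CCR4 that attracts T helper 2 and regulatory T cells, had 2.75, 2.45 and 1.08 normalized reads in KO libraries. It had 7.87, 20.4 and 15.5 in Cre controls and 26.3, 12.1 and 9.86 in floxed controls. The lowest control was thus well above the highest KO library. The means were 2.09 ± 0.889 in KO, 14.6 ± 6.29 in Cre and 16.1 ± 8.89 in floxed libraries (SD, n = 3 each), and the KO mean was 13.7% of that of the 6 controls. Ccl17 fell by 2.34 on the log2(value + 1) scale against both controls (SE 0.35, limma adjusted p = 0.000487). It fell by 2.29 against Cre controls (adjusted p = 0.00176) and fell by 2.39 against floxed controls (adjusted p = 0.0013). It passed under each alternative tried in these 3 comparisons. A pseudocount of 1 pulls low values together, and with a pseudocount of 5 the log2 fold change against both controls was -1.46. The KO values are small, and the gene had 27 to 483 reads per library. Cre and floxed controls differed by -0.10 on this scale (95% interval -0.995 to 0.79, limma adjusted p = 0.957), and by 0.65 without the libraries numbered 1 (adjusted p = 0.294).

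Ccl22, the other ligand of CCR4, had 32.7, 40.3 and 39.8 normalized reads in KO libraries, 57.5, 123.6 and 100.3 in Cre controls and 80.01, 47.6 and 58.4 in floxed controls. The KO libraries lay close together and below every control, while the Cre controls spread widely. Means were 37.6 ± 4.26 in KO, 93.8 ± 33.5 in Cre and 62.0 ± 16.5 in floxed libraries (SD, n = 3 each). Ccl22 fell by 0.96 (log2) against both controls (SE 0.23, limma adjusted p = 0.00734) and fell by 1.23 against Cre controls (adjusted p = 0.00505). Against floxed controls the difference was -0.68 with an adjusted p of 0.0689 from limma. That comparison passed in 6 of the 19 alternatives. It passed with only the genotypes compared fitted (limma adjusted p = 0.0229) and when scaled to library totals alone (adjusted p = 0.0473). It also passed without Cre pool 1 (adjusted p = 0.0152), without Cre pool 2 (adjusted p = 0.0483), without floxed pool 2 (adjusted p = 0.0499) and without the libraries numbered 1 (adjusted p = 0.0413, log2 fold change -0.39). Cre exceeded floxed controls by 0.55 (log2, limma adjusted p = 0.627). Without the libraries numbered 1 that difference was 1.06 (adjusted p = 0.00339).

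The fall of Ccl17 was larger than that of Ccl22. The ratio of Ccl17 to Ccl22 was 0.084, 0.061 and 0.027 in KO libraries, 0.137, 0.165 and 0.154 in Cre controls and 0.328, 0.254 and 0.169 in floxed controls. All KO ratios lay below all control ratios (exact two-sided permutation test over 84 regroupings of KO and control libraries, p = 0.0119, the smallest this design allows, adjusted p = 0.0357 over the 6 ratios computed). These ratios were chosen after the values had been seen.

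Genes of mature, migratory dendritic cells, which also make CCL17 and CCL22, moved with them. Of 14 such genes measured of 16 listed, 9 were lower and 2 higher in KO against both controls, and the median log2 fold change was -0.94. Their summed level was 240 to 248 normalized reads in KO, 287 to 479 in Cre and 270 to 424 in floxed libraries. The 3 most abundant, Cd83, Cd200 and Socs2, are not limited to dendritic cells: Cd83 rose to 96.1 ± 6.43 in KO libraries, against 69.8 ± 10.5 in Cre and 60.2 ± 11.3 in floxed controls, while Cd200 and Socs2 did not pass. Ccr7, the receptor that leads dendritic cells to lymph nodes, had 3.30, 4.90 and 4.72 normalized reads in KO, 26.0, 69.8 and 61.6 in Cre and 42.4, 19.1 and 25.4 in floxed libraries. Its log2 fold change against both controls was -2.83 (limma adjusted p = 7.87e-05). Fscn1, an actin-bundling gene named here after its values were seen, had 4.43 ± 1.04 in KO, 54.5 ± 23.0 in Cre and 32.6 ± 15.9 in floxed libraries. Among 15 genes of conventional dendritic cells, 11 were lower and 0 higher, with a median of -0.82 (7 lower against Cre and 12 against floxed controls), yet their sum hardly differed (2922 to 3055 in KO, 2901 to 3164 in Cre and 2871 to 3052 in floxed libraries) because the abundant Sirpa and Ly75 did not pass and are also genes of macrophages. The part of dendritic cells in the lower Ccl17 and Ccl22 was not tested.

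**Figure D2:**
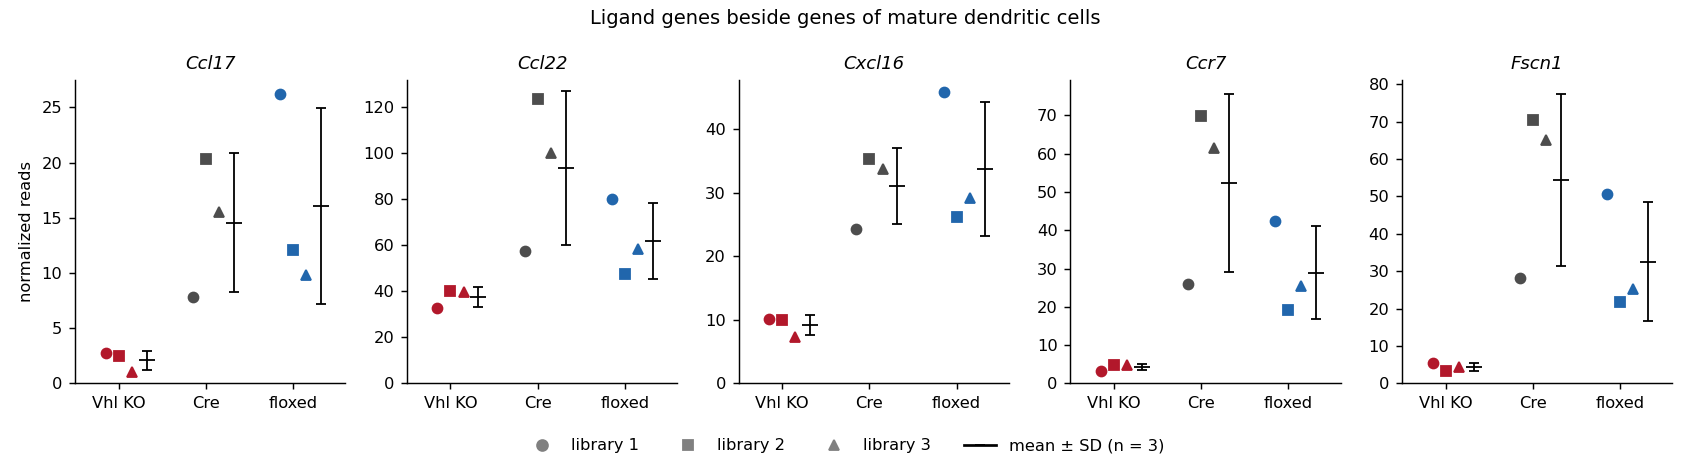
Normalized reads (y axes, starting at 0) of Ccl17, Ccl22 and Cxcl16 beside Ccr7 and Fscn1, genes of mature dendritic cells, in Vhl KO, Cre control and floxed control libraries, with marker shape for the pool number and bars for mean ± SD. In each of the 5 panels, the KO libraries lie below every control. In each panel the highest library is pool 2 among Cre controls and pool 1 among floxed controls.

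Set against Ccr7, also after the values were seen and so as a description only, the ratio of Ccl22 to Ccr7 was 9.90, 8.22 and 8.44 in KO libraries, 2.21, 1.77 and 1.63 in Cre controls and 1.89, 2.49 and 2.30 in floxed controls. A higher ratio in KO follows from the larger fall of Ccr7. The ratio of Ccl17 to Ccr7 was 0.229 to 0.831 in KO, 0.252 to 0.302 in Cre and 0.388 to 0.633 in floxed libraries, so KO overlapped each control, and the 2 kinds of control did not overlap.

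Cxcl16, whose product binds CXCR6 on T and NKT cells and also acts as a scavenger receptor, had 10.1, 10.1 and 7.36 normalized reads in KO libraries. It had 24.3, 35.3 and 33.8 in Cre controls and 45.9, 26.2 and 29.2 in floxed controls. Each KO library was less than the lowest control. Means were 9.17 ± 1.57 in KO, 31.1 ± 5.95 in Cre and 33.8 ± 10.6 in floxed libraries (SD, n = 3 each), and the KO mean was 28.3% of that of all controls. Cxcl16 fell by 1.70 (log2) against both controls (SE 0.18, limma adjusted p = 6.72e-05). It fell by 1.65 against Cre controls (adjusted p = 0.000274) and fell by 1.74 against floxed controls (adjusted p = 0.000191). It passed under each alternative tried in those 3 comparisons.

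Cxcl16 shares sequence with Zmynd15, which lies on the opposite strand and overlaps 552 exon bases. Of the 61-base windows of Cxcl16 transcripts, 16.2% also occur in Zmynd15, and no source used here states the strand setting of the counting, so reads of the 2 genes cannot be fully told apart. Zmynd15 had 1.11 ± 0.0609 normalized reads in KO, 8.16 ± 2.51 in Cre and 7.18 ± 2.51 in floxed libraries, which is lower than Cxcl16 in every library. The ratio of Cxcl16 to Zmynd15 was 7.08 to 8.95 in KO, 3.34 to 4.38 in Cre and 3.08 to 6.07 in floxed libraries (exact permutation test, p = 0.0238, adjusted p = 0.0476). That ratio too was chosen after the values were seen and is a description only, since a higher ratio follows from the larger fall of Zmynd15. Zmynd15 stood on the list of mature dendritic cell genes described above.

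**Figure D3:**
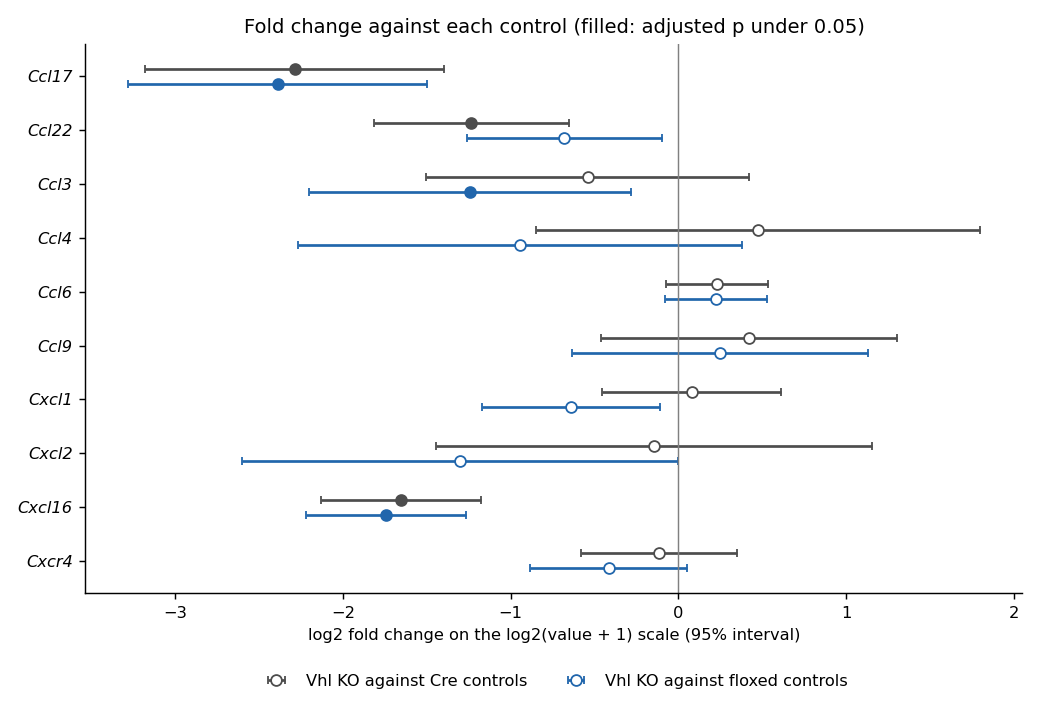
Log2 fold change of each gene with its 95% interval (x axis, log2 scale) for Vhl KO against Cre controls (gray) and against floxed controls (blue), with filled points for adjusted p under 0.05. Ccl17 and Cxcl16 pass against both controls, Ccl22 against Cre controls and Ccl3 against floxed controls.

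Ccl3 and Ccl4 encode the macrophage inflammatory proteins 1 alpha and 1 beta, which attract monocytes and T cells. Ccl3 had 17.0, 5.46 and 7.52 normalized reads in KO libraries, 8.84, 19.6 and 14.02 in Cre controls and 36.96, 22.5 and 13.7 in floxed controls. KO pool 1 overlapped both controls. Against floxed controls Ccl3 fell by 1.24 (log2, SE 0.43, limma adjusted p = 0.0489), and against Cre controls the difference was -0.54 (adjusted p = 0.371). The call against floxed controls was lost in 11 of the 19 alternatives, with adjusted p of 0.0609 by edgeR, 0.0644 by DESeq2, 0.167 without KO pool 2, 0.137 without KO pool 3, 0.138 without floxed pool 1, 0.102 without floxed pool 2, 0.0522 without Cre pool 2 and 0.0691 without Cre pool 3. Against both controls the log2 fold change was -0.89 (adjusted p = 0.0845). It became -1.32 without KO pool 1 (adjusted p = 0.0194), -1.06 without floxed pool 3 (adjusted p = 0.0394) and -1.29 without the libraries numbered 1 (adjusted p = 0.0014). Without the libraries numbered 1, Ccl3 passed against Cre controls as well (-1.25, adjusted p = 0.00431).

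Ccl4 had 8.41, 1.53 and 2.08 normalized reads in KO libraries, 3.43, 1.67 and 1.3001 in Cre controls and 18.4, 3.69 and 4.76 in floxed controls. Pool 1 was the highest in each genotype. The log2 fold change was -0.23 against both controls (95% interval -1.38 to 0.91, limma adjusted p = 0.752), 0.48 against Cre controls (adjusted p = 0.578) and -0.94 against floxed controls (adjusted p = 0.248). Without the libraries numbered 1, the value against floxed controls was -0.90 with an adjusted p of 0.00858. Cre controls stood 1.42 below floxed controls on the log2 scale at an unadjusted p of 0.0377 (limma adjusted p = 0.624), and the difference was -1.07 without the libraries numbered 1 (adjusted p = 0.0412). The sign of the KO difference thus depended on the control.

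Cxcl1 and Cxcl2 encode ligands of CXCR2 that attract neutrophils. Cxcl2 had 45.99, 8.73 and 9.64 normalized reads in KO libraries, 22.5, 16.5 and 14.9 in Cre controls and 76.3, 40.03 and 22.03 in floxed controls. KO pools 2 and 3 lay below all controls, and KO pool 1 above all but floxed pool 1. Cxcl2 did not pass in the limma fit of all libraries by genotype alone (log2 fold change -0.72 against both controls, SE 0.50, adjusted p = 0.287). It passed without KO pool 1 (-1.46, adjusted p = 0.0142) and without the libraries numbered 1 (-1.15, adjusted p = 0.00178). Without those libraries it also passed against Cre controls (-0.71, adjusted p = 0.0401) and against floxed controls (-1.60, adjusted p = 0.000816), and without KO pool 1 against floxed controls (-2.04, adjusted p = 0.00562). Against Cre controls with all libraries, the log2 fold change was -0.14 by limma and 0.26 by edgeR. Of the 61-base windows of Cxcl2 transcripts, 5.27% also occur in its neighbour Cxcl3.

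Cxcl1 was the weakest member, with 8 to 49 reads per library. It had 1.12, 0.408 and 0.60 normalized reads in KO libraries, 0.695, 0.471 and 0.622 in Cre controls and 2.66, 1.18 and 1.25 in floxed controls. Floxed controls were above every library of the other genotypes. Every gene of the table has at least 0.962 in 3 libraries, which Cxcl1 reached only in the floxed libraries and KO pool 1. Cxcl1 is thus in the table mainly through the libraries where it is high, and its differences from floxed controls are no separate evidence. In the limma fit of all libraries by genotype alone, neither comparison of KO passed (adjusted p = 0.829 against Cre and 0.0635 against floxed controls). Cre against floxed controls differed by -0.72 in that fit (log2, unadjusted p = 0.0133, adjusted p = 0.573). Against floxed controls it passed when scaled to library totals alone (-0.67, adjusted p = 0.0473) and without KO pool 1 (-0.80, adjusted p = 0.044).

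The sum of the neutrophil genes was highest in pool 1 of each genotype, as were Cxcl1, Cxcl2 and Ccl4. Ccl3 was highest there in KO and floxed libraries but not in Cre controls. S100a9, a gene of the neutrophil list named after its values were seen, had 90.0, 5.00 and 8.76 normalized reads in KO libraries, 75.2, 0.157 and 0.961 in Cre controls and 176.6, 26.7 and 16.5 in floxed controls. Cxcr2, the receptor for Cxcl1 and Cxcl2, had 26.8, 5.62 and 6.08 in KO, 27.4, 8.37 and 10.3 in Cre and 66.0, 17.0 and 15.8 in floxed libraries. Both were highest in pool 1 of each genotype. Of 7 neutrophil genes measured of 10 listed, 1 was higher and 0 lower in KO against both controls. Their median log2 fold change was -0.31 against both controls, 0.22 against Cre controls and -0.85 against floxed controls. The 3 most abundant, Ltf, Csf3r and Mmp8, averaged 189 ± 84.1, 47.8 ± 41.1 and 85.1 ± 23.2 normalized reads in KO libraries. In Cre controls they averaged 175 ± 71.4, 63.8 ± 40.9 and 49.4 ± 10.99, and in floxed controls 383 ± 234, 128 ± 68.2 and 68.8 ± 15.3. The part of neutrophils in these ligand values was not tested.

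**Figure D4:**
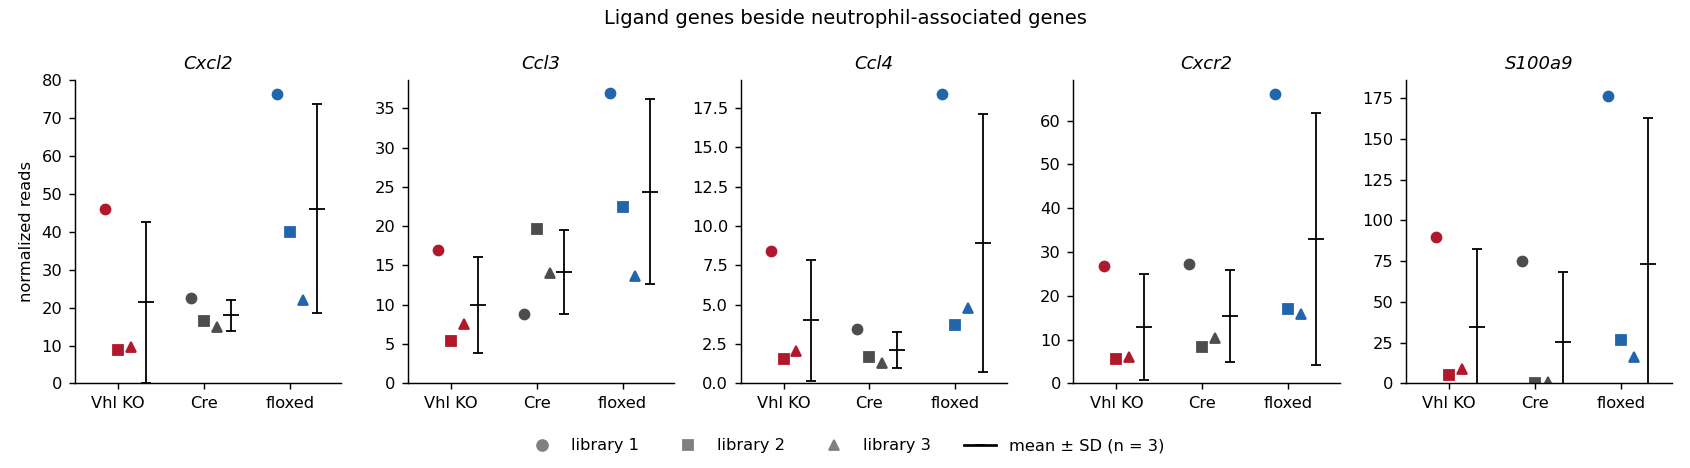
Normalized reads (y axes, starting at 0) of Cxcl2, Ccl3 and Ccl4 beside the neutrophil genes Cxcr2 and S100a9, in Vhl KO, Cre control and floxed control libraries, with marker shape for the pool number and bars for mean ± SD, cut at 0. Pool 1 is the highest of its genotype in every panel except Ccl3 in Cre controls, where it is the lowest.

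Ccl6 and Ccl9 encode ligands of CCR1. Ccl6 was by far the most abundant ligand, with 3491, 2821 and 2896 normalized reads in KO libraries, 2456, 2682 and 2687 in Cre controls and 3076, 2658 and 2174 in floxed controls. The KO libraries overlapped the floxed controls. The log2 fold change was 0.23 against both controls (95% interval -0.04 to 0.49, limma adjusted p = 0.154), so a rise of more than 0.49 lay outside the interval. Ccl6 made up 94.2% to 94.6% of the normalized reads of the 9 ligands in KO, 89.4% to 93.8% in Cre and 89.1% to 92.0% in floxed libraries. The other 8 ligands summed to 164 to 208 normalized reads in KO, 162 to 316 in Cre and 188 to 377 in floxed libraries.

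Ccl9 had 89.9, 104 and 96.3 normalized reads in KO libraries, 36.4, 98.9 and 103 in Cre controls and 90.9, 120.04 and 48.8 in floxed controls. The KO libraries lay within the range of the controls, which spread from the lowest, Cre pool 1, to the highest, floxed pool 2. The log2 fold change was 0.33 against both controls (95% interval -0.43 to 1.10, limma adjusted p = 0.474). The ratio of Ccl9 to Ccl6 was 0.0257 to 0.0369 in KO, 0.0148 to 0.0383 in Cre and 0.0225 to 0.0452 in floxed libraries (exact permutation test, p = 0.798, adjusted p = 0.798).

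Cxcr4 encodes the receptor for CXCL12, which retains leukocytes in marrow and tissue. It had 81.1, 111 and 85.9 normalized reads in KO libraries, 104, 80.5 and 118 in Cre controls and 172, 101.4 and 106 in floxed controls. The groups overlapped. The log2 fold change was -0.27 against both controls (95% interval -0.67 to 0.14, limma adjusted p = 0.276), -0.12 against Cre controls and -0.42 against floxed controls. An increase of more than 0.14 was outside the interval against both controls.

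Per kilobase of exon, which allows levels of different genes to be compared, Ccl6 had 1710 ± 205 normalized reads in KO, 1453 ± 73.7 in Cre and 1468 ± 251 in floxed libraries. Cxcr4 came next in each genotype, with 51.2 ± 8.76 in KO, 55.7 ± 10.4 in Cre and 69.9 ± 21.8 in floxed libraries. In KO the order went on with Ccl9 (31.8 ± 2.36), Ccl22 (16.2 ± 1.83), Ccl3 (13.04 ± 8.03), Cxcl2 (10.4 ± 10.3), Ccl4 (6.07 ± 5.79), Ccl17 (4.07 ± 1.73), Cxcl16 (3.03 ± 0.518) and Cxcl1 (0.378 ± 0.195). Ccl17 stood at 28.3 ± 12.2 per kilobase in Cre and 31.3 ± 17.3 in floxed controls, the fourth level in each. Ccl22 stood at 40.3 ± 14.4 in Cre and 26.7 ± 7.11 in floxed controls. From Ccl22 to Cxcl16 in KO, neighbours in this order did not differ beyond the larger of their SDs. The same held for neighbours among Ccl22, Ccl17, Ccl9 and Ccl3 in either control genotype.

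The genes lie in clusters on GRCm38 (GENCODE M21). Ccl22 (chr8:94745590-94751699), Cx3cl1 (chr8:94772009-94782427) and Ccl17 (chr8:94810453-94812036) lie on the plus strand in that order. Cx3cl1, which encodes a membrane-bound ligand of the monocyte receptor CX3CR1, was lower in KO as well, at 58.1 ± 4.43 normalized reads in KO, 80.0 ± 2.82 in Cre and 79.0 ± 2.11 in floxed libraries (log2 fold change -0.45, limma adjusted p = 0.000171). On chromosome 11, Ccl5 (83525778 to 83530518) is followed by Ccl9 (83572919 to 83578636), Ccl6 (83587882 to 83593087), Ccl3 (83647844 to 83649355) and Ccl4 (83662584 to 83664683). Ccl5, whose product attracts T cells and monocytes, was lower in KO, while its neighbours Ccl9 and Ccl6 did not pass. Cxcl16 lies apart on chromosome 11 (70453983 to 70459984, minus strand). Cxcl3 (90786103 to 90789600), Cxcl1 (90891241 to 90893115) and Cxcl2 (90903871 to 90905938) follow each other on chromosome 5, and Cxcr4 is on chromosome 1 (128588199 to 128592293, minus strand).

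RefSeq promoter windows of 300 bases, 250 before and 50 after the start, were held for 8 of the 10 genes (GRCm38.p6). Ccl17 is shown as the gene with the largest fall, and Cxcl1 and Cxcl2 as neighbours of the same type. Only the 250 bases before the start are printed, on the plus strand, which carries these 3 genes, with motif matches in capitals.
Ccl17 (chr8:94810203-94810452): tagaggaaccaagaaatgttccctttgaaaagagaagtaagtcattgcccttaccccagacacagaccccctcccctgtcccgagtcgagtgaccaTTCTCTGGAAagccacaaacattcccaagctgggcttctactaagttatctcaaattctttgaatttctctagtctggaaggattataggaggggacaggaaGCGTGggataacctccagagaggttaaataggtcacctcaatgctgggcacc
Cxcl1 (chr5:90890995-90891244): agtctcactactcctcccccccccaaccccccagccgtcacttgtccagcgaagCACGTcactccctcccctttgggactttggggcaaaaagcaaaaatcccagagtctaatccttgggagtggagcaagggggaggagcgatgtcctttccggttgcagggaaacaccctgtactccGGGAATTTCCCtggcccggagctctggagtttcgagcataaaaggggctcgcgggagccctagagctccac
Cxcl2 (chr5:90903649-90903898): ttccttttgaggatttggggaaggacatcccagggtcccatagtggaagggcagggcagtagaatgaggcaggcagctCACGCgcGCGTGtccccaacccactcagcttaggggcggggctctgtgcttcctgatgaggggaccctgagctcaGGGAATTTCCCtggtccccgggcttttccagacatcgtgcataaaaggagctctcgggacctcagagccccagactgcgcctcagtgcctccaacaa
Searched on both strands were the HIF core (ACGTG or GCGTG), the STAT6 palindrome (TTC and GAA with any 4 bases between) and the NF-kappaB consensus. Counting the start base as 0, Ccl17 held GCGTG at -52 to -48 and a STAT6 match at -154 to -145. Cxcl1 and Cxcl2 held the same NF-kappaB match, at -71 to -61 and at -97 to -87, and HIF core matches at -196 in Cxcl1 and at -172 and -165 in Cxcl2. Ccl22 held a HIF core match at 41, Cxcr4 at -39, and Ccl9 an NF-kappaB match at -35. Ccl3 and Ccl6 held none of these letters. Of 32851 RefSeq promoters, 43.8% held the HIF core, 4.51% the NF-kappaB consensus and 6.95% the STAT6 palindrome. No overlap between matches of different motifs was seen in the 3 printed sequences.

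Of 29 other chemokine ligand genes listed, 12 were measured. In KO against both controls 3 were lower and 1 higher, with shares of 20.2% and 19.7% over all genes. Their median log2 fold change was -0.18 against both controls, 0.15 against Cre controls and -0.54 against floxed controls. Besides Cx3cl1, Ccl5 fell to 2.27, 2.40 and 2.76 normalized reads in KO, against 8.71, 9.78 and 11.4 in Cre and 10.98, 4.97 and 5.92 in floxed libraries (log2 fold change -1.42, limma adjusted p = 0.000328). Cxcl3, a CXCR2 ligand, had 6.26, 3.78 and 2.40 in KO, 6.16, 28.6 and 29.2 in Cre and 43.1, 31.5 and 10.3 in floxed libraries (-2.14, adjusted p = 0.00991). KO pool 1 lay just above Cre pool 1, and the other libraries did not overlap. Cxcl14 rose, at 12.9 ± 1.25 in KO, 9.93 ± 2.05 in Cre and 8.13 ± 1.028 in floxed libraries (0.49, adjusted p = 0.0115). The ratio of Cxcl2 to Cxcl3 was 2.31 to 7.34 in KO, 0.512 to 3.65 in Cre and 1.27 to 2.14 in floxed libraries (exact permutation test, p = 0.0714, adjusted p = 0.107).

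Of 22 other receptor genes listed, 11 were measured, with 6 lower and 4 higher against both controls. Against Cre controls 2 were lower and 4 higher, and against floxed controls 6 were lower and 3 higher. Ccr1, the receptor for Ccl6 and Ccl9, is named after its values were seen. It rose to 197 ± 30.4 normalized reads in KO, against 127 ± 16.5 in Cre and 138 ± 27.7 in floxed libraries (log2 fold change 0.57, limma adjusted p = 0.00674). Ackr3, an atypical receptor that takes up CXCL12, had 2.53, 3.42 and 3.64 in KO, 0.139, 0 and 0.113 in Cre and 0.109, 0 and 0 in floxed libraries (adjusted p = 5.1e-06), so control values rest on at most 3 reads. Every gene of the table has at least 0.962 in 3 libraries, which Ackr3 reached in KO libraries alone. Ackr3 is thus in the table only through the libraries where it is high, and its adjusted p is no separate evidence. Cxcr1, related to Cxcr2, fell to 8.92 ± 0.903 in KO, against 40.4 ± 12.96 in Cre and 29.8 ± 2.90 in floxed libraries (-1.82, adjusted p = 3.69e-05). Cxcr2 did not pass (-0.86, adjusted p = 0.276). The receptors of Ccl17, Ccl22 and Cxcl16, Ccr4 and Cxcr6, were not analysed here.

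**Figure D5:**
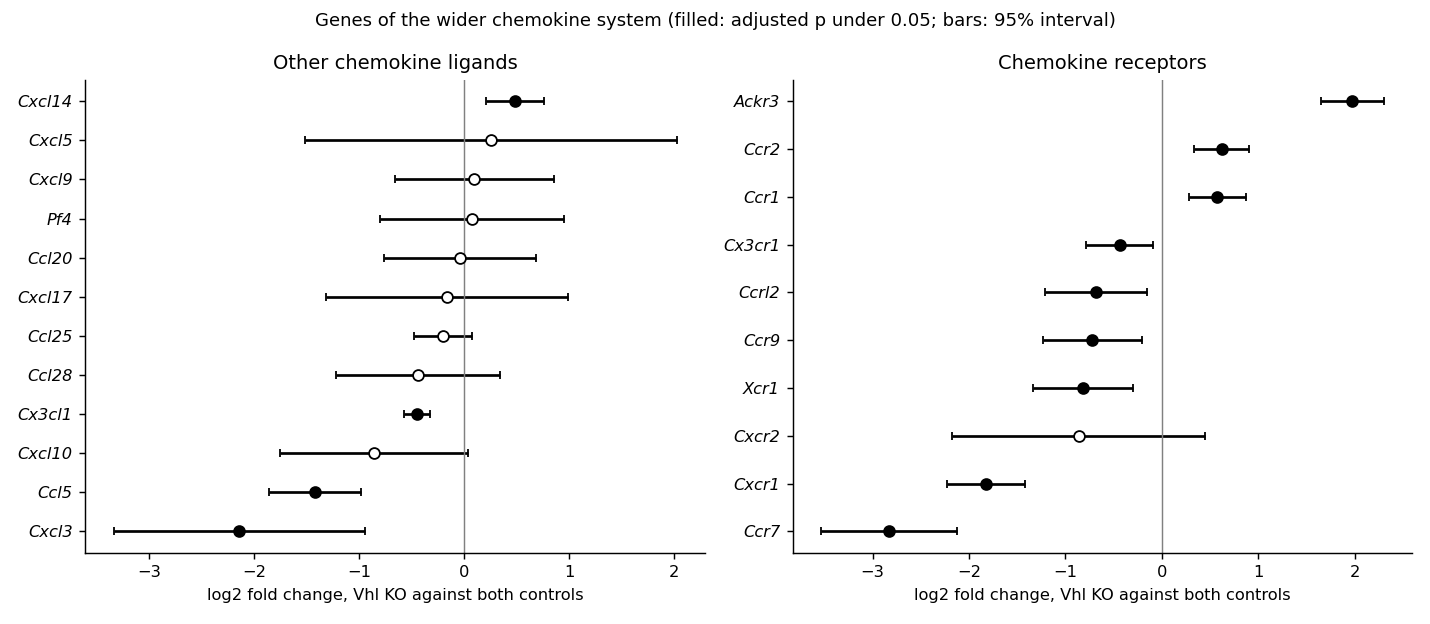
Log2 fold change with its 95% interval (x axes, log2 scale), Vhl KO against both controls, of the measured chemokine ligand genes outside the 10 described (left) and of 10 of the measured receptor genes other than Cxcr4 (right), with filled points for adjusted p under 0.05. Among the receptors shown, Ackr3, in the table through its KO libraries alone, lies farthest to the right, and Ccr7 farthest to the left.

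Genes whose products cut or cap chemokines and their receptors had 3 lower and 2 higher of 12 measured. These counts are near the shares of 20.2% and 19.7% over all genes. Mmp12, the macrophage elastase, rose to 161 ± 37.9 normalized reads in KO, against 19.1 ± 4.60 in Cre and 49.9 ± 47.8 in floxed libraries (log2 fold change 2.53, limma adjusted p = 0.00116). Timp2 and Mmp14 fell (-1.04 and -1.63), as did Dpp4, which trims chemokine N-termini (-0.87, adjusted p = 0.00365, at 0.907 ± 0.172 in KO, 1.71 ± 0.357 in Cre and 3.61 ± 1.204 in floxed libraries). Adam10 and Adam17, the sheddases of membrane-bound CXCL16 and CX3CL1, had log2 fold changes of 0.07 and -0.03 and did not pass. For Adam10 the levels were 276 ± 25.2 in KO, 279 ± 22.0 in Cre and 247 ± 14.3 in floxed libraries.

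Of 23 measured genes that act below chemokine receptors, 10 were lower and 6 higher, with a median of -0.11. Arrb1, an arrestin gene, rose to 368 ± 25.4 normalized reads in KO, against 70.6 ± 18.5 in Cre and 62.0 ± 19.0 in floxed libraries (log2 fold change 2.50, limma adjusted p = 5.66e-06). The other arrestin gene, Arrb2, fell to 70.8 ± 3.65, against 131 ± 4.47 in Cre and 130 ± 9.09 in floxed libraries (-0.88, adjusted p = 2e-06). Rac2, a small GTPase of leukocyte migration, fell by 1.73, and Rgs10, which shortens G protein signals, fell by 1.66. Gnb2 and Ptk2b did not pass.

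Among the pathways known to induce these ligands, NF-kappaB subunits and inhibitors had 9 lower and 2 higher of 20, with a median of -0.39. Relb averaged 17.8 ± 1.42 normalized reads in KO, 37.1 ± 9.35 in Cre and 34.6 ± 5.28 in floxed libraries (log2 fold change -0.95, limma adjusted p = 0.00086), and Relb is on the list of mature dendritic cell genes too. Ikbke, Nfkb2 and Nfkb1 fell by 1.42, 0.61 and 0.36. Nfkbia (0.21) and Tnfaip3 (0.31), feedback inhibitors of the pathway, did not pass. The part of NF-kappaB in the ligand values was not tested. Of 13 measured inflammatory cytokine genes, 4 were lower and 1 higher, with shares of 20.2% and 19.7% over all genes. Tnf had 11.8, 6.89 and 7.88 in KO, 28.9, 40.0 and 25.9 in Cre and 41.9, 32.3 and 29.6 in floxed libraries (-1.80, adjusted p = 4.06e-05). Il12b and Il1a fell by 1.92 and 0.98, Tnfsf9 rose (1.502), and Tgfb1 (-0.12) and Il18 (-0.15) did not pass.

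Interleukin 4 acting through STAT6 is known to induce Ccl17 and Ccl22. Of 11 measured genes of that pathway, 4 were higher and 2 lower, with a median of 0.20. Il4ra rose to 305 ± 7.75 normalized reads in KO, against 166 ± 2.20 in Cre and 194 ± 12.9 in floxed libraries (log2 fold change 0.76, limma adjusted p = 2.34e-06). Stat6 rose to 402 ± 8.13, against 306 ± 3.35 in Cre and 301 ± 9.41 in floxed libraries (0.40, adjusted p = 6.58e-05). Jak3, a kinase of this receptor, rose by 1.63, and Chil3, which STAT6 induces, by 0.74. The 2 lower genes, named after their values were seen, were Tyk2 and Irf4, of which only Tyk2 was lower against Cre controls alone. The part of this pathway in the lower Ccl17 and Ccl22 was not tested. Jak1 and Il13ra1 did not pass.

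Immediate early genes, which rise during cell handling, had 7 higher and 2 lower of 23 measured against both controls, 8 higher and 2 lower against Cre controls, and 5 higher and 5 lower against floxed controls. Their sum was 2237 to 3071 normalized reads in KO, 1814 to 1980 in Cre and 2081 to 2349 in floxed libraries. Fosl2 rose by 0.61 (limma adjusted p = 0.001), and the more abundant Klf6 (0.15) and Fos (0.55) did not pass. Their part in the ligand values was not tested.

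Of 8 interstitial macrophage genes measured of 13 listed, 5 were lower and 1 higher against both controls. Against Cre controls 1 was lower, Mertk, and 1 higher, and against floxed controls 5 were lower and 0 higher. Their sum was 262 to 278 normalized reads in KO, 396 to 416 in Cre and 393 to 457 in floxed libraries. Mertk, an uptake receptor of macrophages, made up most of it (243 ± 9.89 in KO, 379.9 ± 10.6 in Cre and 373 ± 42.4 in floxed libraries), and C1qa and C1qb, which passed against both controls but not against Cre controls alone, had 5.69 ± 1.19 and 5.28 ± 1.32 in KO, 7.54 ± 2.15 and 6.63 ± 2.73 in Cre, and 12.4 ± 4.25 and 13.4 ± 3.78 in floxed libraries. Of 9 epithelial genes measured of 12 listed, 1 was higher and 2 lower, near the shares of 19.7% and 20.2% over all genes, and their sum was 814 to 872 in KO, 500 to 773 in Cre and 473 to 660 in floxed libraries. Krt19 rose to 752 ± 48.9 in KO, against 445 ± 95.2 in Cre and 369.8 ± 5.71 in floxed libraries, while Epcam fell to 26.6 ± 2.08 in KO, against 74.2 ± 29.6 in Cre and 68.9 ± 17.9 in floxed libraries. The part of these cells in the ligand values was not tested.

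The genes most like each member over the 9 libraries were found by Pearson's r on log2 values among 9820 genes that averaged 5 or more normalized reads, as a description that reflects genotype and library at once. Ccl17 was closest to Idi1 (r = 0.99), which had 45.6, 38.2 and 36.1 normalized reads in KO, 72.9, 113 and 100.6 in Cre and 124, 91.3 and 79.8 in floxed libraries. Cxcl16 was closest to Cd300lb (r = 0.99), and Lpcat1 was among the top 3 of both Ccl17 and Cxcl16. Those 2 members also resembled each other, with r = 0.99. Ccl22 was closest to Tbc1d4 (r = 0.98). Ccl4 was closest to Thbs1 (r = 0.99), which had 20.8, 4.54 and 3.999 in KO, 9.35, 3.24 and 3.11 in Cre and 78.3, 12.6 and 12.0 in floxed libraries, thus highest in pool 1 of each genotype. Thbs1 was among the top 3 of Cxcl1 as well, behind Egr1 (r = 0.96). Cxcl2 was closest to Fgl2 (r = 0.96), Ccl3 to Nr2f6 (r = 0.94), Ccl6 to Dynll1 (r = 0.96), Ccl9 to Ctsk (r = 0.97) and Cxcr4 to LTO1 (r = 0.95). Among the members, Cxcl1, Cxcl2 and Ccl4 had r of 0.88 to 0.93 with one another, and Ccl17 with Ccl22 had r = 0.83.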

How the data were processed

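RNA was sequenced from 9 libraries, 3 pools for each of 3 genotypes. The submitters' processing notes name GRCm38, RSEM 1.2.3, cutadapt 1.3 and CASAVA 1.8.2, without their settings. No source used here names the annotation. The deposited signal is a whole number of reads times 1 factor per library, equal to TMM-scaled CPM. All values (100%) came out whole within 0.01 read, 1 read being worth 0.0400 to 0.0565. Every gene has at least 0.962 in 3 libraries. No column was left out.

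limma 3.58.1 (R 4.3.3) was fitted to log2(value + 1) of all libraries, with 1 mean per genotype, empirical Bayes moderation, an intensity trend and Benjamini-Hochberg adjustment over 12003 genes. On recovered reads, edgeR 4.0.16 (quasi-likelihood, 4757 genes called in KO against both controls, against 4781 by limma) and DESeq2 1.42.0 were alternatives, besides other pseudocounts, scaling, filters and left-out libraries. Single ratios used exact permutation tests. P-values measure the spread between pools, which may be partly technical.

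The members and lists were chosen with earlier results of these data known. Named genes are all members, Vhl, per pathway list at most 4 called genes (those of lowest adjusted p) and at most 2 uncalled genes averaging 10 or more, the 3 most abundant of each marker list and the 3 most like each member; others are marked in the text. A receptor gene that this rule names and a coding sequence are not reported here.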

Additional observations from a re-analysis of the deposited data

How the results depend on the processing

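Ccl17 and Cxcl16 kept their calls in every alternative tried against both controls and each control, and Ccl22 against both and against Cre controls. Of 750 fold changes of single genes under alternatives, 687 kept direction and side of the threshold, 24 passed only there, 11 lost a call and 28 changed sign. The number of members called against both controls was 3, and 5 without the libraries numbered 1, an alternative chosen after seeing the data; leaving out 1 library gave 3 to 5. Against floxed controls it was 3, with 5 when scaled to library totals alone, 6 with the replicate number as a block and 6 without the libraries numbered 1, and 2 to 5 leaving out 1 library. Against Cre controls it was 3, and 5 without the libraries numbered 1. Between Cre and floxed controls it was 0, then 1 with the block and 2 without the libraries numbered 1. Over all genes, 20 passed in that comparison, 71 with the block, 11 with only those genotypes fitted, 74 by DESeq2 and 147 without the libraries numbered 1. With the block, Cxcl2 (adjusted p = 0.0133), Ccl4 (0.0145) and Cxcl1 (0.0271) passed against floxed controls. The labels do not say that a number marks a shared day or animal. Deviations of same-numbered pools correlated at -0.09 to 0.52, above 0.1 in 6 of 9 pairs and at 0.20 to 0.52 among the pools numbered 1, with -0.44 to 0.38 between other pools. Not every pool correlated best with its own number, so the fit without the block was kept.

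Signs changed for small differences. Cxcl2 against Cre controls was 0.2561 by edgeR and 0.2622 by DESeq2. Without the libraries numbered 1, the log2 fold changes against Cre controls were -0.01 for Ccl9, -0.0412 for Cxcl1 and 0.0022 for Cxcr4, and Cre against floxed controls gave 0.6547 for Ccl17, 0.1596 for Ccl6, 0.3919 for Ccl9 and 0.3096 for Cxcl16. Leaving out 1 library gave -0.8183 to 0.1286 for Ccl4 against both controls and -0.1119 to 0.5286 for Ccl9 against floxed controls. Against Cre controls it gave -0.1077 to 0.8392 for Ccl4, -0.0617 to 0.6765 for Ccl9, -0.0858 to 0.2076 for Cxcl1, -0.8785 to 0.2574 for Cxcl2 and -0.2664 to 0.0054 for Cxcr4. Between Cre and floxed controls it gave -0.3766 to 0.2945 for Ccl17, -0.1336 to 0.1167 for Ccl6, -0.5327 to 0.3107 for Ccl9 and -0.2458 to 0.1466 for Cxcl16. The cause was not tested. The 8 to 49 reads of Cxcl1 limit its precision.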
